A study of Danio rerio with 4 samples.

Results

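Ion channels that open under membrane stretch, blood flow or extracellular ATP were examined in bulk RNA-seq values of dissected zebrafish hearts. The set was defined by gene symbol, with no threshold on a measured value but with earlier results of these data known, and comprised 9 genes. *piezo1*, *pkd1a*, *pkd2* and *trpv4* encode stretch- and flow-gated channels, and *p2rx1*, *p2rx4a*, *p2rx4b*, *p2rx5* and *p2rx8* encode P2X channels gated by ATP. Of the 9 symbols, 8 matched a row among the 19661 genes of the deposited table, and *p2rx8* was not analysed here. A mean of at least 5 over the 4 libraries was required for testing, which 7 channel genes and 17501 genes in all met, and *p2rx5* lay under it.

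Hearts of *egr3* mutants with the *bns577* allele on both chromosomes (bns577-/-), which carries an 11-bp deletion, were compared with hearts from wild-type siblings (bns577+/+). Both groups were collected at 48 hours postfertilization (hpf), and each of the 2 samples per genotype was a pool of 20 hearts. Egr3 is a zinc finger transcription factor, and the comparison asks which genes differ in the heart when it is lost. The *egr3* deletion was present in every cell of the animal, so hearts were read together with the effects of its loss elsewhere.

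Endocardial cells line the heart and sense the blood that passes over them. In zebrafish, the polycystin 2 and Trpv4 channels have been placed upstream of the flow-responsive transcription factor gene *klf2a*, through protein kinase D and the histone deacetylase Hdac5. ATP released from the stretched endocardium opens P2X channels, calcium enters, and the calcium-dependent transcription factor Nfatc1 is activated during valve formation.

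The 4 libraries had total values between 9161759 and 9481943 normalized counts, that is, read counts per gene that the authors normalized by DESeq2 and then rounded. Whether a correction beyond a library factor is contained in these values is not given in the sources used here. The normalized counts of *egr3* itself were 528 and 537 in wild-type pools, against 873 and 889 in mutant pools (replicates in number order, here and below). A gene-level count does not show an 11-bp deletion and so does not check the labels, although the submitters state that the deletion was seen in the mutant reads. Markers of myocardium (5 of 6 found) summed to between 17581 and 19551 normalized counts. Those of endothelium and endocardium (6 of 6) summed to between 18665 and 21294, and both sums overlapped between the genotypes. By gene, 4 of the 5 myocardial markers were lower in both mutants and 1, *myh6*, overlapped. Of the 6 endothelial markers 4 overlapped, *kdrl* was higher in both mutants and *fli1a* lower. The 4 markers of atrioventricular endocardium did not overlap, with 2 higher (*nfatc1* and *notch1b*) and 2 lower (*alcama* and *has2*). The shares over all genes tested were 24.7% higher and 25.8% lower in both mutants. The paper reports no apparent differential expression of *notch1b* or *nfatc1* in *egr3* mutants. It also reports no obvious change of atrioventricular canal patterning, with *has2* and Alcama among its stains. Epidermal markers (5 of 5 found) summed to 2771 and 16428 in wild-type pools, against 3433 and 655 in mutant pools, and neuronal markers (4 of 5 found) to 315 and 394 against 595 and 513. Hatching gland markers (4 of 4 symbols, 5 rows) summed to 3065 and 3430 against 1609 and 1621, with all 5 rows lower in both mutants and a median log2 fold change of -5.09. Most of the mutant sum came from *cd63*, which differed little (1633 and 1672 against 1582 and 1600, log2 fold change -0.05). The other rows had at most 17 normalized counts in a mutant pool. Among the 4 neuronal markers found, *stmn2a* was listed at 0 in both wild types and had 13 and 10 normalized counts in the mutants. In a bulk sample, fewer cells of a type and less RNA per cell cannot be told apart.

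Both replicate 2 libraries stood apart in their records. The study's run overview gives the wild-type replicate 2 sample a library with a mutant name and the mutant replicate 2 sample a library with a wild-type name, and lists a lower aligned share for both. The hatching enzyme gene *he1.1* had 987 and 1063 normalized counts in wild-type pools, against 17 and 16 in mutant pools. For *he1.2* the values were 280 and 388 against 2 and 1. In these genes and *egr3*, each replicate 2 library lay nearer to replicate 1 of its labelled genotype than to the other genotype. Genes that separate the labelled groups do so in any case, so they do not check the labels. Genotypes here follow the sample labels, and the difference of each channel gene is also given from the replicate 1 libraries alone. The values carried a further pattern. For 15460 of 17501 genes (88.3%) the difference between replicates 1 and 2 had opposite signs in the 2 genotypes, and deviations from the genotype means correlated at -0.99 across genes between same-numbered libraries. Among 10969 genes whose mean reached 100, replicate 1 minus replicate 2 had an SD over genes of 0.32 on the log2 scale in the wild types, and of 0.01 after averaging both genotypes. The fit counts 2 residual degrees of freedom for each gene, but the deviations of the 2 genotypes were thus nearly mirror images of each other. For this reason unadjusted p-values of the fit were read against the share of all genes that reached the same p. Close replicates in 1 genotype likewise came with close replicates in the other, so they are not 2 separate checks of a gene. With the replicate number added to the fit as a block, the 95% interval of each tested channel gene included 0.

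**Figure D1:**
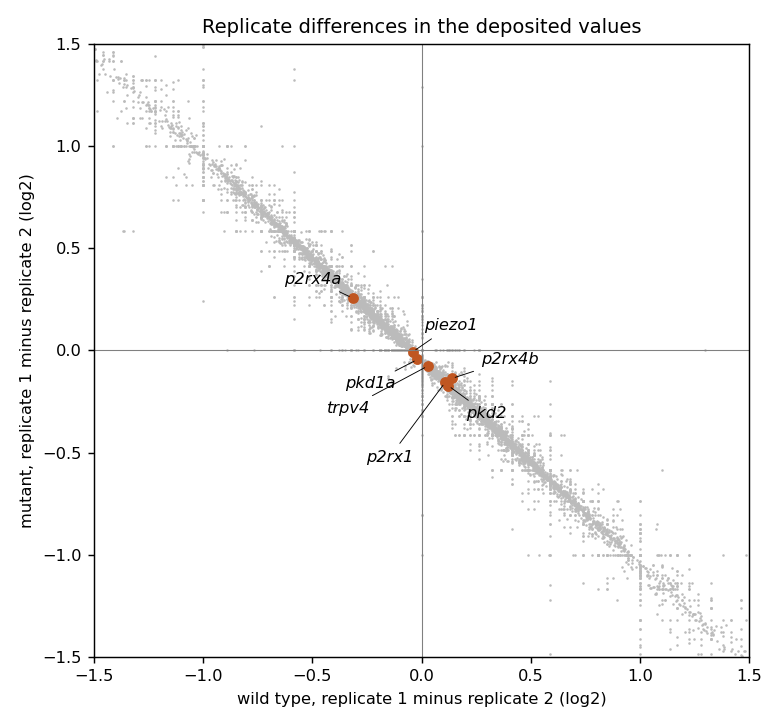
Each grey point is a tested gene, with replicate 1 minus replicate 2 in the wild types on the x axis and in the mutants on the y axis, both as log2(normalized count + 1), for the 16690 genes within 1.5 on both axes (811 lie outside). Orange points mark the 7 tested channel genes, 5 of which had differences of opposite sign, and the points fall along a descending diagonal.

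Of the 7 channel genes tested, 2 lay higher in both mutant pools than in either wild-type pool (*piezo1* and *pkd1a*), 4 lay lower in both (*pkd2*, *trpv4*, *p2rx4a* and *p2rx4b*), and *p2rx1* overlapped between the genotypes. Across all genes tested, 24.7% lay higher in both mutants and 25.8% lower in both. Fold changes of the channel genes ranged from -1.0 (*p2rx4b*) to 0.41 (*pkd1a*) on the log2 scale, with a median of -0.18 against -0.0007 over all genes tested. No channel gene passed an adjusted p of 0.05 in limma, a linear model with moderated variances (Benjamini-Hochberg adjustment over 17501 genes, lowest adjusted p 0.147, highest 0.474). The background for this call was 0.00571%, a single gene, the hatching enzyme gene *he1.1*. The study's own analysis of the same genotypes reported more genes at an adjusted p under 0.05, so the count depends on the method. At an unadjusted limma p under 0.05, 6 of the 7 channel genes were called, 2 higher and 4 lower, against 21.6% of all genes tested (10.8% in each direction). The number called fell to 0 when any 1 of the 4 libraries was left out, and the background was then between 6.66% and 9.83%.

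**Figure D2:**
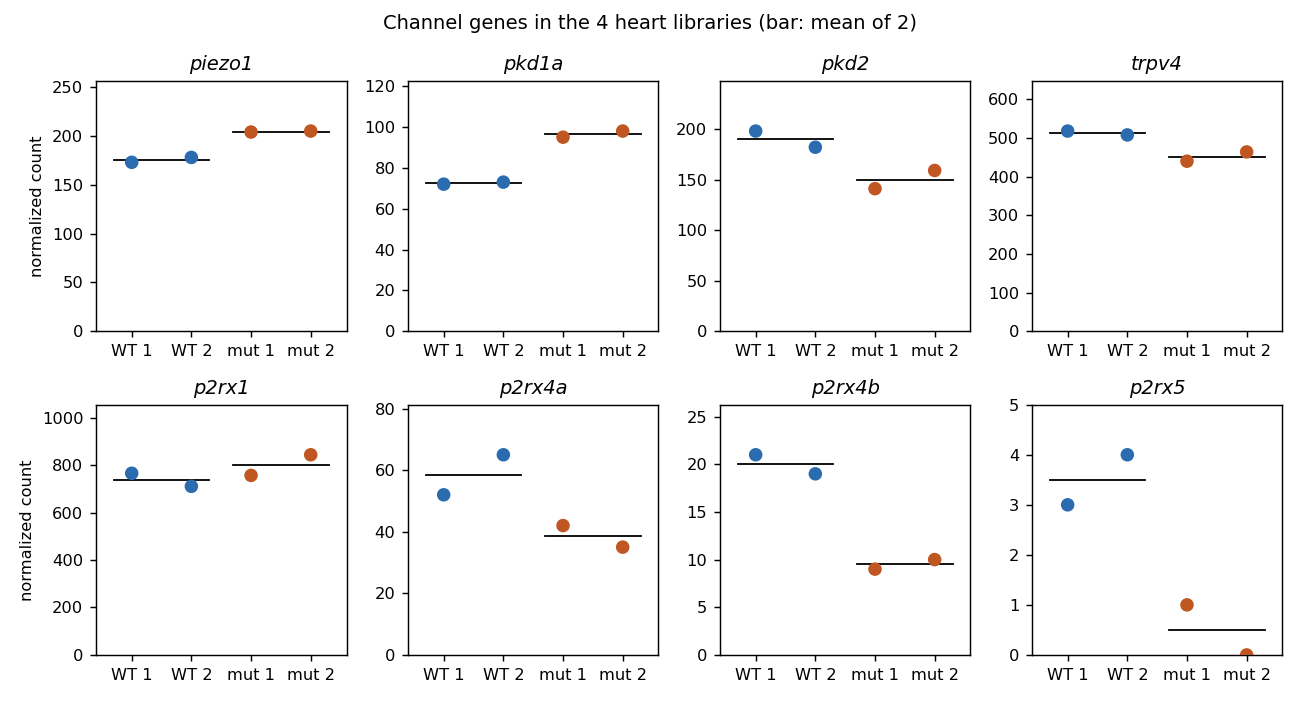
Normalized counts of the 8 channel genes found in the table, with 1 panel per gene, 1 point per library and a bar at the mean of the 2 libraries of a genotype; each y axis starts at 0 and has its own range. The mutant points of *piezo1* (204 and 205) and *pkd1a* (95 and 98) lie above the wild-type points, and those of *pkd2*, *trpv4*, *p2rx4a*, *p2rx4b* and *p2rx5* below them.

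Piezo1 is a large cation channel that opens when the membrane is stretched, and in zebrafish it takes part in the formation of the outflow tract and its valve. Its gene (ENSDARG00000076870) lies on chromosome 7 from 55328420 to 55454406 (build danRer11, as all positions here). The wild-type pools had 173 and 178 normalized counts, the mutant pools 204 and 205. The lower mutant exceeded the higher wild type, and replicates of a genotype lay close together. The log2 fold change was 0.22 (standard error 0.07, 95% interval 0.01 to 0.43), with an unadjusted p of 0.0463 and an adjusted p of 0.225 from limma. With the replicate block the interval was -0.35 to 0.79. The replicate 1 libraries alone gave 0.24.

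Polycystin 1 proteins are long membrane proteins with a large extracellular part that assemble with polycystin 2, a cation channel of the TRP family. *pkd1a* (ENSDARG00000030417, chromosome 1, 54282042 to 54425791) measured 72 and 73 normalized counts in wild-type pools, against 95 and 98 in mutant pools. Both mutants were above both wild types, the groups were further apart than their replicates, and this was the largest positive difference of the 7 tested channel genes. On the log2 scale the difference was 0.41 (standard error 0.10, 95% interval 0.12 to 0.69, unadjusted p 0.0179, adjusted p 0.162 from limma). Without the replicate 2 libraries it was 0.40.

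*pkd2* (ENSDARG00000014098), the partner of *pkd1a* in the channel complex, lies on the same chromosome 1 from 50538839 to 50557030, 3.73 Mb away from it. It measured 198 and 182 normalized counts in wild-type pools, against 141 and 159 in mutant pools. Its direction was opposite to that of *pkd1a*, with both mutants below both wild types. Its log2 fold change came to -0.34 (standard error 0.11, 95% interval -0.66 to -0.02, unadjusted p 0.041, adjusted p 0.212 from limma). The replicate 1 libraries alone gave -0.49 and the replicate 2 libraries alone -0.19, so the size of the difference depended on the library pair.

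Trpv4 is a calcium-permeable TRP channel that responds to swelling, stretch and flow. *trpv4* (ENSDARG00000061941, chromosome 5, 19795977 to 19833310) measured 518 and 508 normalized counts in wild-type pools, against 440 and 464 in mutant pools. The mutants lay below the wild types. This was a log2 fold change of -0.18 (standard error 0.06, 95% interval -0.35 to -0.01, unadjusted p 0.0426, adjusted p 0.216 from limma), and the replicate 1 libraries alone gave -0.24. Summed over the 4 stretch- and flow-gated channel genes, the normalized counts reached 961 and 941 in wild-type pools, against 880 and 926 in mutant pools.

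P2X receptors are trimers of subunits that open a cation pore when ATP binds from outside the cell. P2X4 subunits respond to ATP released under flow in human endothelial cells, and zebrafish have 2 paralogous genes for them. *p2rx4a* (ENSDARG00000044752, chromosome 21, 15723069 to 15732401) measured 52 and 65 normalized counts in wild-type pools, against 42 and 35 in mutant pools. The groups did not overlap, although the wild types were further from each other than wild-type replicate 1 was from mutant replicate 1. In the fit the log2 fold change was -0.59 (standard error 0.19, 95% interval -1.15 to -0.02, unadjusted p 0.045, adjusted p 0.222 from limma). It was -0.30 in the replicate 1 libraries and -0.87 in the replicate 2 libraries. Wild-type replicate 2 was the highest library and mutant replicate 2 the lowest for *p2rx4a* and for the summed epidermal markers. The same held for the summed myocardial markers (17737 and 19551 in wild-type pools, against 18771 and 17581 in mutant pools). It did not hold for each myocardial gene, as *myh6* was highest in mutant replicate 1. The part of these tissues in the *p2rx4a* values was not tested.

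*p2rx4b* (ENSDARG00000042452, chromosome 8, 30743263 to 30755977) measured 21 and 19 normalized counts in wild-type pools, against 9 and 10 in mutant pools. Both mutants lay below both wild types, with the largest fold of the 7 tested channel genes. Mutants differed by a log2 fold change of -1.0 (standard error 0.21, 95% interval -1.62 to -0.38, unadjusted p 0.012, adjusted p 0.147 from limma), on a scale of log2(normalized count + 1) that understates changes of low genes. The replicate 1 libraries alone gave -1.14. Reads that map to several places were removed by the authors, so any reads shared between the paralogs *p2rx4a* and *p2rx4b* would be missing from both genes. Whether such reads existed was not examined. Their sum was 73 and 84 normalized counts in wild-type pools, against 51 and 45 in mutant pools. Both mutants lay below both wild types in the sum, which follows from the same order in each gene.

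*p2rx4b* is on the same chromosome as *egr3*, 20.0 Mb away. Among the tested genes within 1 Mb of *p2rx4b*, 9 of 34 (26.5%) had an unadjusted limma p under 0.05, 4 higher and 5 lower in mutants, near the 21.6% of all genes tested. The neighboring P2X gene *p2rx7* ends 2191 bp from *p2rx4b* on the opposite strand, and its values overlapped between the genotypes, with 70 and 84 normalized counts in wild-type pools, against 82 and 71 in mutant pools (log2 fold change -0.01, adjusted p 0.987 from limma). On the other side of *p2rx4b*, *gucd1* measured 426 and 430 normalized counts in wild-type pools, against 329 and 337 in mutant pools, and *upb1* had 8 and 10 against 33 and 27. These neighbors were chosen for their position after their values were seen. The lower values in mutants were thus shared with *gucd1*, were not found in *p2rx7*, and were opposite in *upb1*. Also within 100 kb, *specc1la* (1111 and 1088 against 1016 and 1075) and *adora2aa* (1160 and 1056 against 885 and 1006) were lower in both mutants. The remaining genes there overlapped. Within 5 Mb, 9 of 114 tested genes were higher and 20 lower at that p, against 10.8% of all genes tested in each direction.

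P2X1 is the subunit of fast, quickly desensitizing ATP currents in mammalian platelets and smooth muscle. *p2rx1* (ENSDARG00000016695, chromosome 5, 31439390 to 31470426) measured 766 and 711 normalized counts in wild-type pools, against 757 and 844 in mutant pools. Mutant replicate 1 lay between the wild types, and mutant replicate 2 above them. The difference in the limma fit was 0.12 on the log2 scale (standard error 0.08, 95% interval -0.13 to 0.36, unadjusted p 0.244, adjusted p 0.474), and it turned to -0.02 in the replicate 1 libraries. Thrombocytes are the platelet-like cells of fish. Their markers (4 of 5 found, none at 0 in all libraries) summed to 1817 and 1629 normalized counts in wild-type pools, against 1795 and 2077 in mutant pools, the same order of libraries as for *p2rx1*. That order also held for the summed markers of endothelium and endocardium (20371 and 18665 against 18823 and 21294) and of macrophages and neutrophils (2208 and 1775 against 1922 and 2487). These are orders of sums. By gene, none of the thrombocyte markers found had the order of *p2rx1*, and the endothelial markers differed in order. The part of these cells in the *p2rx1* values was not tested. Within the thrombocyte list, the platelet adhesion receptor gene *gp9* measured 293 and 289 normalized counts in wild-type pools, against 451 and 473 in mutant pools (log2 fold change 0.66, adjusted p 0.126 from limma). *gp1bb* was also higher in both mutants (114 and 81 against 166 and 242). *thbs1b*, which held most of the counts in that list, overlapped between the genotypes (1410 and 1255 against 1171 and 1361). The low values of *mpl* overlapped as well (0 and 4 against 7 and 1).

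*p2rx5* (ENSDARG00000004455, chromosome 5, 42097608 to 42120927) encodes a further ATP-gated subunit. It had 3 and 4 normalized counts in wild-type pools, 1 in mutant replicate 1, and was listed at 0 in mutant replicate 2. Both mutants lay below both wild types, but values this low were not tested and no fold is given. Over the 4 P2X channel genes found, the summed normalized counts reached 842 and 799 in wild-type pools, against 809 and 889 in mutant pools, and most of these counts were those of *p2rx1*.

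**Figure D3:**
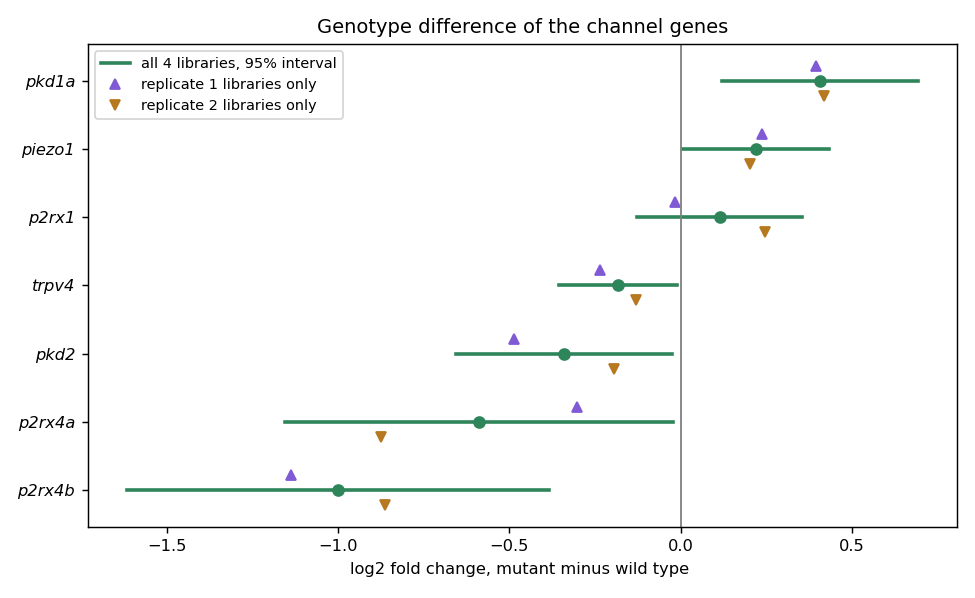
Log2 fold change (mutant minus wild type, x axis) of the 7 tested channel genes: circles and lines are the fit to all 4 libraries with its 95% interval, upward triangles the replicate 1 libraries alone, and downward triangles the replicate 2 libraries alone. The triangles of *p2rx1* lie on both sides of 0 (-0.02 and 0.25), and those of the other 6 genes on the same side as the fit. The groups of these 6 genes do not overlap, so their triangles could not lie on the other side. The intervals are those without a replicate block, and with that block the interval of each gene included 0.

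Other genes of the same pathways were read from lists chosen by function. Among the other P2X subunits, 2 of 4 symbols were found and neither had an unadjusted p under 0.05, against 21.6% of all genes tested (median log2 fold change -0.08). *p2rx3b*, whose mammalian counterpart is typical of sensory neurons, measured 1926 and 1757 normalized counts in wild-type pools, against 1547 and 1755 in mutant pools (log2 fold change -0.16, adjusted p 0.381 from limma). The mutants were lower, with mutant replicate 2 within 2 counts of wild-type replicate 2, and the difference was -0.07 without mutant replicate 1 and -0.09 without wild-type replicate 1. Over all 6 P2X genes found, the sums were 2838 and 2640 in the wild types against 2438 and 2715, which overlapped.

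*piezo2a.2* was the only one found of 5 other Piezo symbols, and belongs to the touch-sensing relatives of Piezo1. It measured 64 and 97 normalized counts in wild-type pools, against 201 and 137 in mutant pools. Mutant values were above wild-type values with a wide spread in both groups (log2 fold change 1.06, standard error 0.31, adjusted p 0.196 from limma). The summed neuronal markers were also higher in both mutants, and their part in this difference was not tested. The paper also stained hearts for *piezo2a* as a valve marker, and reports no obvious change of atrioventricular canal patterning in *egr3* mutants. Such staining shows place more than level, and whether its probe reads *piezo2a.2* is not known here. Of 7 other polycystin symbols, 3 were found and 1 was tested. This gene, *pkd1l2b*, measured 32 and 24 normalized counts in wild-type pools, against 6 and 8 in mutant pools, below them in both (log2 fold change -1.86, standard error 0.28, adjusted p 0.134 from limma).

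Of 29 other TRP channel symbols, 17 were found and 11 were tested, of which 1 had an unadjusted p under 0.05 with higher and 2 with lower values in mutants, against 10.8% of all genes tested in each direction (median log2 fold change 0.10). *mcoln1a*, which encodes a cation channel of lysosomes, measured 158 and 153 normalized counts in wild-type pools, against 307 and 327 in mutant pools. The groups were far apart relative to their replicates (log2 fold change 1.02, standard error 0.08, adjusted p 0.122 from limma, and 0.841 with the replicate block). *trpv6*, a calcium uptake channel of epithelia, had 36 and 20 against 3 and 6, and the endolysosomal *mcoln2* had 21 and 28 against 8 and 7, so that both were lower in the mutants (log2 fold changes -2.40 and -1.57, adjusted p 0.145 and 0.134). Among 6 tested genes of 13 symbols for other mechanically gated channels, *tmem63c* measured 34 and 33 normalized counts in wild-type pools, against 18 and 20 in mutant pools (log2 fold change -0.79, adjusted p 0.147 from limma). It was the only one of these 6 with an unadjusted p under 0.05, against 21.6% of all genes tested, and their median log2 fold change was 0.19. *tmem63a*, the gene with the most counts in that list, overlapped between the genotypes (302 and 408 against 388 and 297).

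**Figure D4:**
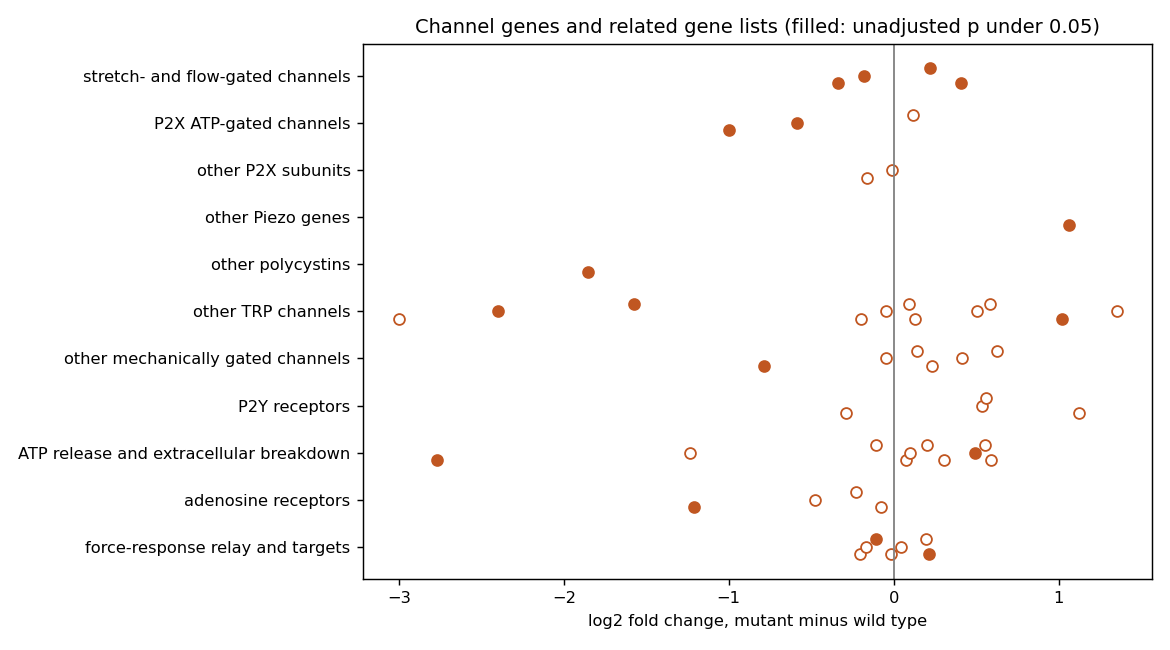
Log2 fold change (mutant minus wild type, x axis) of each tested gene of the channel groups and of the related lists (y axis), filled where the unadjusted limma p was under 0.05. The 4 stretch- and flow-gated genes lie on both sides of 0, up to 0.41 from it, and *p2rx4b* at -1.0 is the lowest of the P2X genes.

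ATP outside the cell also acts on P2Y receptors, which couple to G proteins, and is broken down in steps to adenosine. Of 13 P2Y symbols 5 were found, and none of the 4 tested had an unadjusted p under 0.05, against 21.6% of all genes tested (median log2 fold change 0.55). *p2ry11*, the one with the most counts, measured 57 and 61 normalized counts in wild-type pools, against 49 and 47 in mutant pools (log2 fold change -0.29, adjusted p 0.284 from limma), with both mutants lower.

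For ATP release and extracellular breakdown, 11 of 14 symbols were found and 10 tested, and 1 gene in each direction, *nt5e* higher and *entpd3* lower, had an unadjusted p under 0.05, against 10.8% of all genes tested in each direction (median log2 fold change 0.15). *nt5e*, whose product makes adenosine from AMP, measured 297 and 292 normalized counts in wild-type pools, against 405 and 426 in mutant pools. The mutants lay further from the wild types than the replicates from each other (log2 fold change 0.49, standard error 0.06, adjusted p 0.134 from limma, and 0.841 with the replicate block). *entpd3*, whose product cleaves extracellular ATP, had 6 and 19 in the wild types and 2 in mutant replicate 1, and was listed at 0 in mutant replicate 2. *entpd1*, another enzyme of this step with the most counts in the list, overlapped (1496 and 1245 against 1310 and 1629).

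Adenosine receptors were found for 4 of 6 symbols, all 4 tested, with a median log2 fold change of -0.35. *adora2ab*, an adenosine receptor gene, had 17 and 18 normalized counts in wild-type pools, against 7 in both mutant pools (log2 fold change -1.21, standard error 0.22, adjusted p 0.140 from limma). It was the only one of the 4 with an unadjusted p under 0.05, against 21.6% of all genes tested. Its paralog *adora2aa*, with 1160 and 1056 against 885 and 1006, was also lower in both mutants (log2 fold change -0.23, adjusted p 0.275, and -0.14 without mutant replicate 1). It lies within 100 kb of *p2rx4b* on chromosome 8.

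For the relay from flow-gated channels to transcription, 7 of 8 symbols were found and tested, with a median log2 fold change of -0.02 and an unadjusted p under 0.05 for 1 gene in each direction, *nfatc1* and *klf2a*, against 10.8% of all genes tested in each direction. *klf2a* measured 3060 and 3038 normalized counts in wild-type pools, against 2773 and 2892 in mutant pools, lower in both (log2 fold change -0.11, standard error 0.03, adjusted p 0.203 from limma). With quantile normalization it was -0.05 (unadjusted p 0.167 from limma), and without a variance trend the unadjusted p was 0.174. *klf2b*, its paralog, overlapped (3165 and 3037 against 3083 and 3326). *nfatc1* had 1549 and 1644 in wild-type pools, against 1872 and 1825 in mutant pools, higher in both (log2 fold change 0.21, standard error 0.05, adjusted p 0.150 from limma). The protein kinase D gene *prkd2* was higher in both mutants (400 and 384 against 432 and 466, adjusted p 0.245) and its relative *prkd3* lower in both (216 and 213 against 186 and 196, adjusted p 0.308). *hdac5* overlapped (471 and 418 against 406 and 473), as did *egr1* (858 and 671 against 572 and 758). The paper reports that *klf2a*, *klf2b* and *nfatc1* did not appear differentially expressed in *egr3* mutants. Its staining for *klf2a* and *egr1* showed no obvious change of patterning. None of the genes in these lists had an adjusted p under 0.05 in limma. Exon lengths were not used here, so levels were compared between libraries and not between genes.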

How the data were processed

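Total RNA of pooled hearts was made into libraries with a low-input kit (SMART-Seq v4) and sequenced as single-end reads. According to the study's methods and the submitters' processing notes, which name Trimmomatic 0.39, STAR 2.7.10a, Picard 2.27.1, featureCounts 2.0.2, DESeq2 1.30.1 and the build danRer11, reads were trimmed, aligned, freed of multi-mapping and duplicate reads, and counted per gene. Removing duplicates of single-end reads by position can compress the values of abundant genes. The authors deposited a score per gene and library, described as a DESeq2-normalized count and rounded to a whole number. A factor per library shifts all genes alike on the log2 scale and leaves the mirrored replicate deviations unchanged. Whether a further step entered the values is not given in the sources used here. The deposited values are not raw counts, so the edgeR test planned for raw counts was not run and no counting interval is given. The table also holds gene annotation, from which positions and pathway terms were taken, and 0 columns of sample values were left out.

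Genotypes were compared with limma 3.58.1 under R 4.3.3 (lmFit and eBayes, trended variance, two-sided) on log2(normalized count + 1) for genes with a mean of at least 5, with Benjamini-Hochberg adjustment over all of them. The fit was tested on simulated data with independent libraries. Those data lack the mirrored replicate deviations of the real values, so that test does not check the p-values given here. The samples are described as biological duplicates, and 2 against 2 samples are too few for a permutation test of single genes to reach 0.05. Channel genes are always named. From each related list, genes with an unadjusted p under 0.05 (at most 4, by lowest p) and the gene of highest mean are named. *prkd2*, *prkd3*, *hdac5*, *egr1*, *p2rx7*, *gucd1*, *upb1*, *specc1la* and the marker genes were added after their values were seen. The channel genes and lists were chosen with earlier results of these data known. Alternatives were the replicate number as a block, pseudocounts of 0.5 and 5, no filter, a mean of at least 20, 2 other scalings, no variance trend, and leaving out each library.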

Additional observations from a re-analysis of the deposited data

How the results depend on the processing

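All 7 tested channel genes kept the sign of their difference under each alternative fit that gave them a value (12 for *p2rx4b*, which was under a mean of 20, and 13 for the others). Most of these fits could not have turned it. The blocks, the filters and the variance trend leave a fold change as it is. For the 6 genes whose groups did not overlap, another pseudocount or leaving out 1 library could not turn the sign either. *p2rx1* turned to -0.02 only in the replicate 1 libraries compared without a fit. The log2 fold changes spanned 0.19 to 0.24 for *piezo1*, 0.37 to 0.43 for *pkd1a*, -0.43 to -0.25 for *pkd2*, -0.22 to -0.14 for *trpv4*, 0.04 to 0.19 for *p2rx1*, -0.75 to -0.43 for *p2rx4a* and -1.07 to -0.79 for *p2rx4b*. No planned fit gave a channel gene an adjusted p under 0.05. The number with an unadjusted limma p under 0.05 was 6 of 7, against 21.6% of all genes tested. It was 3 of 6 with a mean of at least 20 (21.9% of all genes) and 7 of 8 without a filter (22%). With a pseudocount of 5 it was 5 of 7 (21.4%), and without a variance trend also 5 of 7 (19.8%). Over all genes, the number with an adjusted p under 0.05 was 1, and became 0 without a filter, 3 with a mean of at least 20, 28 without a variance trend, and 0 whichever single library was left out.

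Same-numbered libraries deviated in opposite directions (correlation -0.99), and no source pairs them by animal or day. A replicate block in the fit left 1 residual degree of freedom. Under it, 0 channel genes had an unadjusted p under 0.05 (lowest 0.173, background 4.9%), their adjusted p lay between 0.842 and 0.880, and 0 genes of the whole table passed the adjusted threshold. A crossed replicate block, chosen after seeing the data, gave 7 of 7 channel genes and 12169 of 17501 genes with an adjusted limma p under 0.05. It joins libraries whose deviations correlated at 0.99, so it takes up most of the residual spread by construction. Its p-values are therefore not evidence of a difference in any gene. Leaving out 1 library turned the direction of *entpd1* (-0.059 to 0.26), *klf2b* (-0.0081 to 0.10) and *tmem63a* (-0.26 to 0.17).

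Values of *p2rx4b*, *p2rx5* and *p2rx4a* are low, and 2 pools per genotype limit the precision of all of them.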

Other observations

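The annotation column of the deposited table assigns 161 genes to the calcium signaling pathway of KEGG, a term chosen after the data were seen. Of its 143 tested genes, 17 had an unadjusted limma p under 0.05 with higher and 16 with lower values in mutants, together 23.1% against 21.6% of all genes tested. The term holds 4 of the channel genes, *p2rx1*, *p2rx4a*, *p2rx4b* and *p2rx5*. Within 5 Mb of *p2rx4b*, 29 of 114 tested genes (25.4%) had an unadjusted p under 0.05, 9 higher and 20 lower in mutants, against 10.8% of all genes tested in each direction. *p2rx5* and the TRP channel gene *trpv1* lie 15431 bp apart on chromosome 5, and *p2rx1* lies 10.6 Mb from *p2rx5* on that chromosome.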
